A study of Mus musculus with 12 samples.

Results

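Expression of 10 genes of the hypothalamic stress axis was described in 12 hypothalamus arrays, taking every non-control probe that carried the gene's symbol. The list held the ligands Crh and Ucn, the binding protein Crhbp, the receptors Crhr1 and Crhr2, the corticosteroid receptors Nr3c1 and Nr3c2, and the hormone-responsive genes Fkbp5, Sgk1 and Tsc22d3. A probe was present for 9 of the 10 genes, among 27827 distinct gene symbols on the array. No probe carried the symbol Crh, so the releasing hormone itself was not analysed here. The other 9 genes had 20 probes, of which 18 entered the tests.

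The mice were males of the outbred ICR stock that began at 3 weeks of age and had 2 drinking tubes in the cage. The water group (3 arrays) received water in both tubes, and the alcohol mice received water and a 5% or 10% alcohol solution and could choose between them. By how much and when they drank, alcohol mice were sorted into low drinkers (3 arrays), early high drinkers (3 arrays) and late high drinkers (3 arrays), which the labels call low, early and late alcohol drinkers. Each array was hybridised with Cy3-labelled RNA pooled from the hypothalami of 1 to 3 mice, with 3 mice in each water pool and, by the study's description, fewer mice in the pools of high than of low drinkers, so a p-value measures the spread between such pools. Drinking lasted to day 51 by one description of the study and to day 57 by another, and intake was not assigned by the investigators. In whole tissue, fewer cells of a type and less RNA per cell cannot be told apart.

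Corticotropin-releasing hormone, from neurons of the paraventricular nucleus, drives the pituitary to release corticotropin, and the adrenal gland then releases glucocorticoids. These return to the brain, bind the glucocorticoid receptor (Nr3c1) and the mineralocorticoid receptor (Nr3c2), restrain the releasing hormone and switch on genes such as Fkbp5, Sgk1 and Tsc22d3. The axis is known to respond to acute alcohol and to withdrawal from it.

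The promoter windows below are shown because the activated receptor or cAMP signalling acts on genes through short DNA elements, and the measured genes differ in carrying them next to the start site. The windows are the 250 bases before an annotated start in RefSeq (GRCm38.p6), read 5′ to 3′ on the gene's strand. Capitals mark the elements found. The Sgk1 window lies at chr10:21993640-21993889 on the plus strand, the Tsc22d3 window at chrX:140600523-140600772 on the minus strand and the Ucn window at chr5:31138896-31139145 on the minus strand.
Sgk1: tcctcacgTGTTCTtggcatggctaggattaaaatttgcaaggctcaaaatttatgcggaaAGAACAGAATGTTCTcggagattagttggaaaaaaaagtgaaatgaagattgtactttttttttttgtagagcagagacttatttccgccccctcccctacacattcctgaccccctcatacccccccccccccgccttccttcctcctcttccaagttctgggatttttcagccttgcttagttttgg
Tsc22d3: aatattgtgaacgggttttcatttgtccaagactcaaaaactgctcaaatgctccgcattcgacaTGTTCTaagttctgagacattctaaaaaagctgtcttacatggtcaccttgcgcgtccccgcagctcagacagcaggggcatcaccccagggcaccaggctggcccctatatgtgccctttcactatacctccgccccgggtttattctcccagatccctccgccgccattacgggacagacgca
Ucn: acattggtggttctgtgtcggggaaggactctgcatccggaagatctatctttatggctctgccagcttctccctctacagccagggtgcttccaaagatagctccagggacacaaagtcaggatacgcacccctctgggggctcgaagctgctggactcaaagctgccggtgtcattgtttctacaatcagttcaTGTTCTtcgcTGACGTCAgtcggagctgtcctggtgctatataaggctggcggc
The full glucocorticoid response element searched was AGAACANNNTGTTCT, a palindrome that reads alike on both strands, and it begins 189 bases before this start of Sgk1. Only 3 of 32851 mouse promoter windows of this length, 0.00913%, held it. Its hexamer TGTTCT, searched on both strands and contained in the full element, was found in 16.1% of all windows. It was present in 5 of the 15 windows listed for 8 of the measured genes, all 5 of them of Sgk1, Tsc22d3 or Ucn, and it begins 185 bases before the Tsc22d3 start and 54 bases before the Ucn start shown. The cAMP response element TGACGTCA, also a palindrome, begins 44 bases before the Ucn start and was held by 1.55% of windows. In the Sgk1 window the hexamer begins 242, 189 and 180 bases before the start, the last 2 being the arms of the full element, and 2 other Sgk1 windows each held it once. Sgk1 and Tsc22d3 had several windows each, and every other listed gene had a single one. The remaining Sgk1 windows and the Tsc22d3 windows not shown held none of the 3 motifs. The windows of Crhbp, Crhr1, Crhr2, Nr3c2 and Fkbp5 held none of the 3 motifs, which says nothing of sites farther away.

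All values below are log2 signals after the signal of each array was divided by its 75th percentile, so 0 is the 75th percentile of an array, and differences are between means on that scale. Between 67.0% and 79.3% of the non-control spots of an array were well above background, and no spot was saturated. The arrays lay on 3 slides of 4 arrays. Slide 1 held the 3 water arrays and low 1, slide 2 held low 2 and 3 with early high 1 and 2, and slide 3 held early high 3 with the 3 late high arrays, so water shares a slide only with low 1. Of 9 hypothalamic marker genes with a probe (Avp, Oxt, Pmch and Hcrt among them), 8 were well above background on all arrays. Anterior pituitary markers varied more, with the growth hormone and prolactin probes well above background on 7 and 6 arrays. Marker levels here are sums over a list, relative to the mean of the 3 water arrays. For the pituitary list they were 0.480 to 1.81 in water, 1.06 to 1.20 in low, 0.142 to 0.514 in early high and 0.600 to 0.984 in late high drinkers. The sum was highest on water 3. Of 6 pituitary genes tested, 6 were lower in high than in low drinkers, 4 lower in early high drinkers than in water and 2 lower in late high drinkers than in water at an unadjusted p under 0.05, where 11.3%, 1.87% and 8.88% of all probes were lower. Choroid plexus markers ranged from 0.527 to 1.48 in water and from 0.574 to 0.725 in late high drinkers. Oligodendrocyte markers lay at 0.942 to 1.04 in water, 1.01 to 1.08 in low, 1.07 to 1.13 in early high and 1.03 to 1.21 in late high drinkers. In late high drinkers 3 of 7 genes were higher than in water at an unadjusted p under 0.05, where 6.87% of all probes were higher. Cortex markers lay at 0.858 to 1.13 in water and 1.13 to 1.25 in late high drinkers, with 2 of 7 genes higher and 2 lower, against 6.87% and 8.88% of all probes. Hypothalamic markers lay at 0.902 to 1.09 in water, 0.957 to 1.16 in low, 0.949 to 1.19 in early high and 1.04 to 1.23 in late high drinkers. Of these 9 genes 1 was higher in late high drinkers than in water at an unadjusted p under 0.05. Endothelial markers lay at 0.962 to 1.06 in water and 0.856 to 1.08 in late high drinkers. Their part in the results below was not tested.

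With alcohol and water compared as a whole, 3 of the 18 member probes had an unadjusted p under 0.05, all of them for Tsc22d3 and all higher in alcohol. Over all 32376 probes tested the share was 5.53%. No member probe, and no probe at all (0%), passed after Benjamini-Hochberg adjustment in limma, and the smallest adjusted p among members was 0.819. The median difference of the member probes was 0.04, against 0.03 over all probes. Ucn, Crhbp, both releasing hormone receptors, both corticosteroid receptors, Fkbp5 and Sgk1 gave no call between alcohol and water, and the standard errors below give the precision of each.

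**Figure D1:**
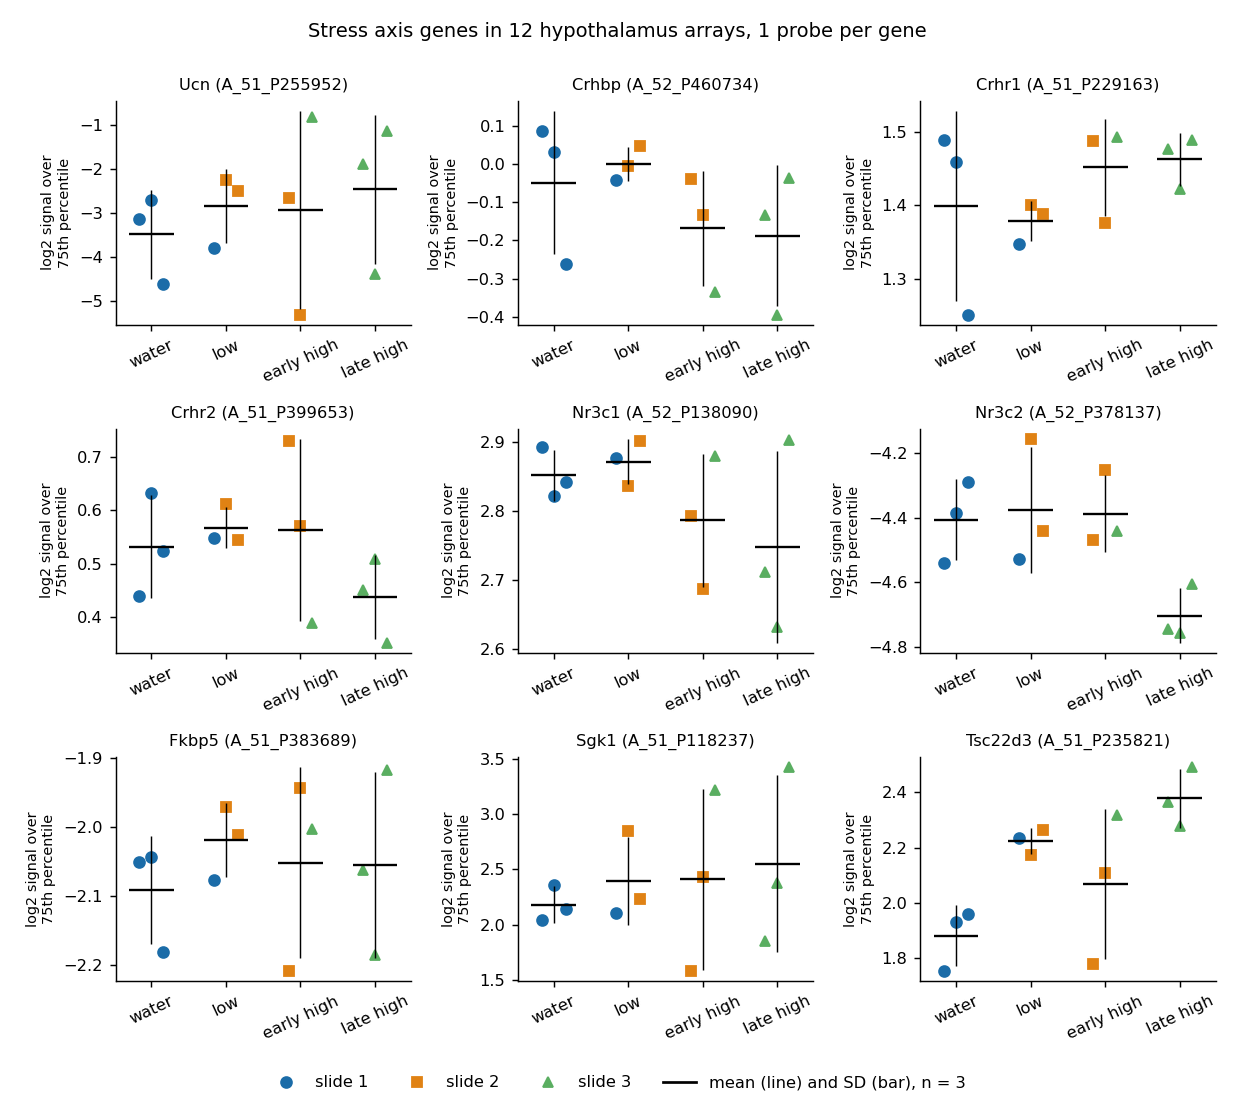
Log2 signal over the 75th percentile of the array (y axis, its own range in each panel) of 1 probe per gene in the 4 conditions (x axis); points are arrays, coloured by slide, with the mean and SD of 3 arrays. Tsc22d3 lay higher in low and late high drinkers than in water, Ucn and Sgk1 spread widely within a condition, and Nr3c2 was lowest in late high drinkers on this scale but not after quantile normalization.

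Tsc22d3 encodes the leucine zipper protein GILZ, which glucocorticoids induce in many cell types and which restrains inflammatory transcription factors. On its brightest probe (A_51_P235821; mm9 chrX:137074393-137074452, minus strand) the water arrays read 1.76, 1.93 and 1.96, the low arrays 2.24, 2.17 and 2.26, the early high arrays 1.78, 2.11 and 2.32, and the late high arrays 2.36, 2.28 and 2.49. Every low and every late high array lay above every water array, while early high 1 lay among the water arrays. The means rose in the order water (1.88 ± 0.11, SD, n = 3), early high (2.07 ± 0.27), low (2.22 ± 0.05) and late high (2.38 ± 0.11). In that order early high overlapped both of its neighbours, and low and late high did not overlap, a difference that was not tested.
The alcohol arrays were 0.34 above water (SE 0.12, 1.27-fold), with 8 of 9 above the water mean and an exact permutation p of 0.0182 (2-sided). The other probes gave 0.33 (SE 0.13, exact permutation p = 0.0227) and 0.27 (SE 0.10, exact permutation p = 0.0318), again with 8 of 9 arrays above. All 3 probes lie within the same stretch of the X chromosome and read the same RNA pools, so they are not separate evidence. The adjusted p from limma was 0.819 for each. Without water 1, the lowest water array, the brightest probe's difference was 0.28 (adjusted p = 0.920 in limma) and no Tsc22d3 probe kept an unadjusted p under 0.05. Without scaling between arrays it was 0.35 (unadjusted p = 0.0696 in limma). A fit with the slide as a fixed term cannot use most of these arrays, since only slide 1 holds both water and alcohol, and its alcohol difference of 0.35 (unadjusted p = 0.0639 in limma) is that of low 1 alone from the 3 water arrays.

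**Figure D2:**
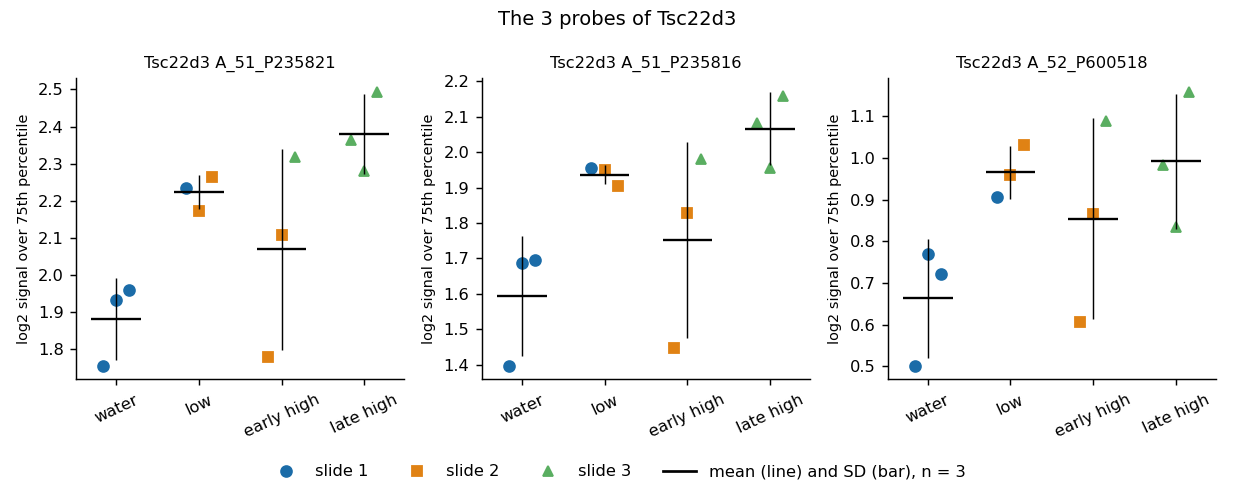
Log2 signal over the 75th percentile (y axis) of each of the 3 Tsc22d3 probes in the 4 conditions (x axis), with points for arrays by slide and the mean and SD of 3 arrays. All 3 probes show low and late high arrays above every water array and early high 1 at the water level.

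By condition, low drinkers exceeded water on all 3 Tsc22d3 probes, by 0.34, 0.34 and 0.30, with no overlap of the arrays. These were the only 3 of 17 member probes with an unadjusted p under 0.05, against 9.13% of all probes and 0.176% after adjustment, and the smallest adjusted p of a member was 0.509 (limma). The low 1 array, scanned on the slide of the water arrays, stood 0.35 above them on the brightest probe. Groups of 3 against 3 cannot give an exact permutation p below 0.1, which is the value for groups without overlap. The share of all probes without overlap is not given, here or for the other comparisons of 3 against 3. Leaving out water 1 took all 3 Tsc22d3 calls in low drinkers away, with 0.28 on the brightest probe, as did leaving the arrays unscaled (0.26), and leaving out any 1 of the 3 low arrays left 1 of the 3.
In late high drinkers the same probes stood 0.50 (SE 0.12), 0.47 and 0.33 above water, again with no overlap. In all, 4 of 18 member probes were under 0.05 here, the Nr3c2 probe below being the other one, but 15.7% of all probes were too, so the members' count is near the background. None passed adjustment (0% of all probes; smallest member adjusted p = 0.129 in limma). With the slide as a fixed term the late high difference on the brightest probe was 0.14 (unadjusted p = 0.586 in limma). The late high and water groups share no slide, so this value adds the difference of low 1 from water, that of early high 1 and 2 from low 2 and 3, and that of late high from early high 3.
Early high drinkers gave no member probe under 0.05 of 18 (4.77% of all probes; 0% after adjustment), with Tsc22d3 0.19, 0.16 and 0.19 above water. Without water 2, a second Nr3c2 probe (-0.39) and a Crhr1 probe (0.31) were under 0.05. That Nr3c2 probe was well above background on only 7 arrays, and the share of all probes in this fit is not given. Without early high 1, 4 probes were under 0.05, the 3 of Tsc22d3 at 0.33, 0.31 and 0.31 and 1 of Fkbp5 at 0.50, against 3.58% of all probes in the same fit. That array read lowest of all 9 alcohol arrays on all 3 Tsc22d3 probes, and lowest of all 12 on Sgk1. Without early high 3 the move was the other way, to 0.06, 0.04 and 0.07 on the Tsc22d3 probes and 0.20 on the same Fkbp5 probe.

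**Figure D3:**
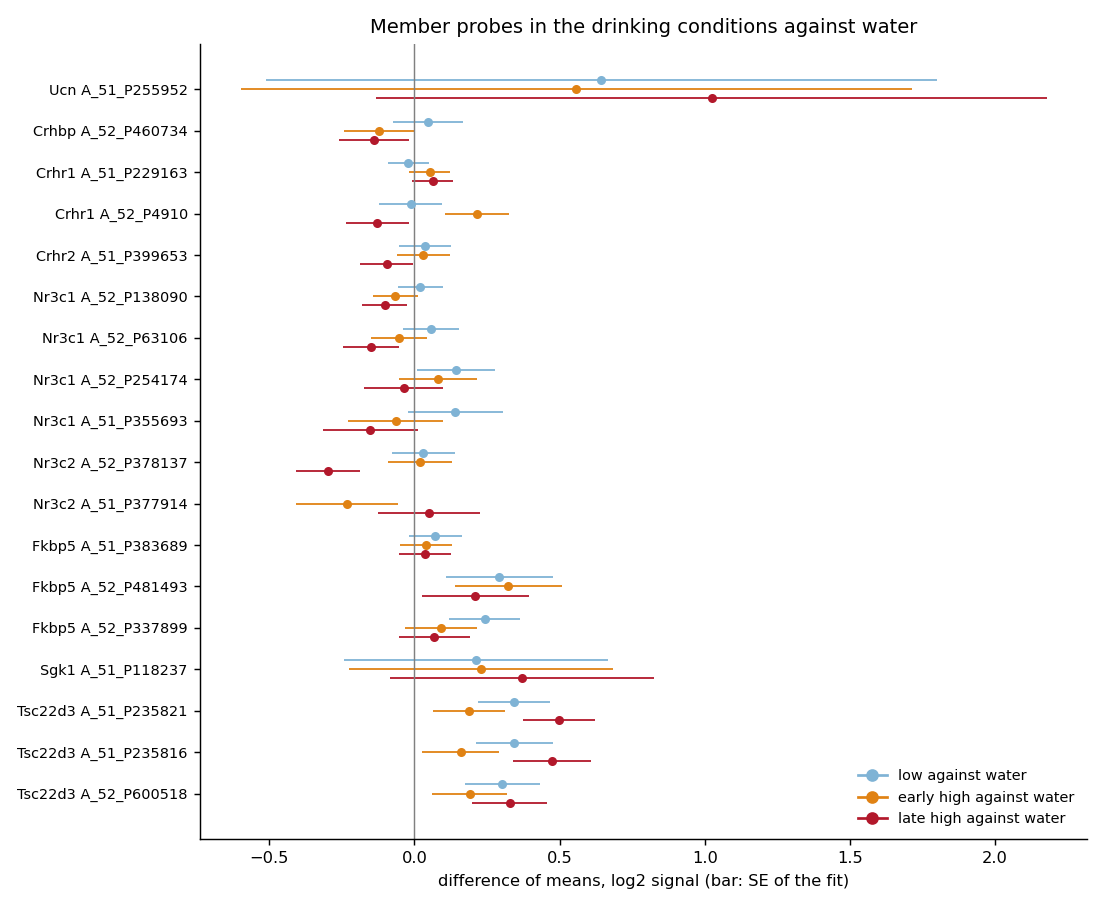
Difference of means in log2 signal (x axis, bars are standard errors of the limma fit) of each tested member probe (y axis) in low, early high and late high drinkers against water. The Tsc22d3 probes lie to the right of 0 in all 3 conditions, from 0.16 to 0.50, the Ucn and Sgk1 bars are the widest, and one Nr3c2 probe lies at -0.30 in late high drinkers.

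Ucn encodes urocortin, a relative of the releasing hormone that binds both of its receptors and is known mainly from neurons of the midbrain. Its only probe (A_51_P255952; mm9 chr5:31440366-31440423, minus strand) was well above background on all 12 arrays. It read -3.15, -2.70 and -4.62 in water, -3.80, -2.24 and -2.49 in low, -2.66, -5.31 and -0.83 in early high and -1.89, -4.39 and -1.13 in late high drinkers. The lowest and the highest array of the series were both early high pools, 4.49 apart on the log2 scale or 22.4-fold, a wider range than 99.9% of the probes measured on all arrays had. All 4 conditions overlapped. The means rose in the order water (-3.49 ± 1.00, SD, n = 3), early high (-2.93 ± 2.26), low (-2.85 ± 0.84) and late high (-2.47 ± 1.70), and no neighbours in that order differed beyond their spread.
The alcohol mean was 0.74 above water, with a standard error of 0.87 that exceeds the difference, and the exact permutation p was 0.441. Leaving out single arrays moved the difference from 0.18 without water 3 to 1.14 without water 2. Neither this nor changing the scaling turned its sign. On slide 1, the only slide with both, low 1 stood at -0.31 from the water mean. By likeness over the 12 arrays, a description chosen for Ucn after its values were seen, the nearest genes were Wnt4 (r = 0.865), Ccne1, Epha7, Vezt and Mettl26, out of 13017 genes compared, with ranges from 0.17 to 0.47 on the log2 scale.

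Crhbp encodes a secreted protein that binds the releasing hormone and urocortin and keeps them from their receptors. Its probe (A_52_P460734; mm9 chr13:96201903-96201962, minus strand) read 0.09, 0.03 and -0.26 in water, -0.04, -0.01 and 0.05 in low, -0.04, -0.13 and -0.34 in early high and -0.13, -0.39 and -0.04 in late high drinkers. Water 3 and both high groups supplied the low values, and the groups overlapped. The means ran from late high (-0.19) through early high (-0.17) and water (-0.05) to low (0.00), with no neighbours apart beyond their spread. The alcohol difference was -0.07 (SE 0.10, exact permutation p = 0.545). With single arrays left out it ran from -0.18 without water 3 to -0.003 without water 1. The high against low difference was -0.18 (SE 0.10, exact permutation p = 0.107), and none of the 6 high arrays lay above the low mean.

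Crhr1, the receptor by which the releasing hormone acts on pituitary corticotrophs and on many forebrain neurons, had 2 probes that did not behave alike. The first (A_51_P229163; mm9 chr11:104036691-104036750, plus strand) read 1.49, 1.46 and 1.25 in water, 1.35, 1.40 and 1.39 in low, 1.49, 1.38 and 1.49 in early high and 1.48, 1.42 and 1.49 in late high drinkers. Its whole range over the 12 arrays was 0.24, narrower than in most probes, and water 3 was the lowest array. The means rose from low (1.38) through water (1.40) and early high (1.45) to late high (1.46), each neighbour within the spread of the next. The alcohol difference was 0.03 (SE 0.06), and it became -0.04 without water 3. The 2 lowest arrays, water 3 and low 1, had summed anterior pituitary marker levels of 1.81 and 1.17, the first the highest of all arrays and the second below low 3 at 1.20, and the part of pituitary tissue in the Crhr1 values was not tested.
The second Crhr1 probe (A_52_P4910; mm9 chr11:104034643-104034702, plus strand) read -2.52, -2.24 and -2.52 in water, -2.45, -2.29 and -2.58 in low, -2.26, -2.16 and -2.21 in early high and -2.52, -2.73 and -2.42 in late high drinkers. Every late high array lay below every early high array, by 0.34 in the mean (SE 0.11). This difference kept an unadjusted p under 0.05 without each array in turn and had an adjusted p of 0.326 in limma, and without scaling between arrays it was -0.19 and no longer under 0.05, and with the slide as a fixed term -0.34 (unadjusted p = 0.0838 in limma). On the first probe the same difference was 0.01 (SE 0.07).

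Crhr2, the receptor that prefers the urocortins, had 1 probe (A_51_P399653; mm9 chr6:55040093-55040152, minus strand). It read 0.44, 0.63 and 0.52 in water, 0.55, 0.61 and 0.54 in low, 0.73, 0.57 and 0.39 in early high and 0.45, 0.51 and 0.35 in late high drinkers. Early high overlapped every other condition, and the means fell from low (0.57) and early high (0.56) through water (0.53) to late high (0.44), no neighbours differing beyond their spread. The alcohol difference was -0.01 (SE 0.08, exact permutation p = 0.905), a size that turns sign with single arrays left out.

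Nr3c1 encodes the glucocorticoid receptor and had 4 probes. The brightest (A_52_P138090) read 2.89, 2.82 and 2.84 in water, 2.88, 2.84 and 2.90 in low, 2.79, 2.69 and 2.88 in early high and 2.71, 2.63 and 2.90 in late high drinkers. The high groups held the lowest arrays, but each also held one at the level of water. The means fell from low (2.87) through water (2.85) and early high (2.79) to late high (2.75), and neighbours overlapped. The alcohol difference was -0.05 (SE 0.07, exact permutation p = 0.468), a 0.966-fold level, and over the 4 probes it ran from -0.05 to 0.06. Against low drinkers the 4 probes were lower in high drinkers by 0.10 to 0.25, with unadjusted p from 0.0853 to 0.321, and without scaling between arrays the sign turned on 2 of the 4, including the brightest (0.02). Without late high 3, the highest late high array, the late high difference from water on the brightest probe was -0.18 in place of -0.10 and passed an unadjusted p of 0.05 (adjusted p = 0.219 in limma).

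Nr3c2 encodes the mineralocorticoid receptor, which binds corticosterone tightly and is densest in the hippocampus. Of its 3 probes, only A_52_P378137 (mm9 chr8:79432928-79432987, plus strand) was well above background on every array. It read -4.54, -4.39 and -4.29 in water, -4.53, -4.15 and -4.44 in low, -4.47, -4.25 and -4.44 in early high and -4.75, -4.76 and -4.61 in late high drinkers. All 3 late high arrays lay below the other 9, and the means of low (-4.37), early high (-4.39) and water (-4.41) were within the spread of each other. The late high mean was 0.30 below water (SE 0.11, 0.814-fold, adjusted p = 0.238 in limma) and 0.32 below early high (adjusted p = 0.341 in limma), where the second tested probe went the other way (0.28).
The direction held under the other scalings, with late high against water at -0.25 after quantile normalization and -0.17 without scaling, but neither was under an unadjusted p of 0.05. With normexp background this probe was not under 0.05 for late high against water either. The call was lost in 4 of the 12 fits that leave out an array, the smallest difference being -0.24 without water 3 (unadjusted p = 0.0814 in limma), and with the slide as a fixed term it was -0.45 (unadjusted p = 0.115 in limma). The low drinkers' difference from water was 0.03 and turned to -0.44 under quantile normalization (unadjusted p = 0.0220 in limma), below that of late high drinkers, so late high was not the lowest condition on that scale. A second probe, measured on 10 arrays and well above background on 7, gave 0.05 for late high against water, and for late against early high 0.53 under quantile normalization (unadjusted p = 0.0238 in limma), where the first probe gave -0.14. The 2 probes thus disagreed in direction between the high groups.

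In late against early high drinkers, 4 of 18 member probes were under an unadjusted p of 0.05, 1 of the 2 Crhr1 probes and 1 of the 2 Nr3c2 probes lower and 2 Tsc22d3 probes higher (0.31 and 0.31). The share over all probes was 12.4%, and 0% after adjustment. The Tsc22d3 differences were 0.17 and 0.16 without early high 1, and no longer under 0.05, and neither was called without late high 1 or without late high 3. Without scaling only the same Tsc22d3 probes, at 0.46 and 0.47, were under 0.05. Within slide 3, which held the late high arrays and early high 3, the brightest Tsc22d3 probe differed by 0.06. In high against low drinkers no member probe of 17 was under 0.05, against 14.7% of all probes and 0.0221% after adjustment, and the brightest Tsc22d3 probe differed by 0.00 (SE 0.11). Without late high 3 the count was 2, both for Nr3c1 (-0.14 and -0.20), and without early high 3 (Nr3c1, -0.20) or low 1 (Nr3c2, -0.25) it was 1. The share of all probes in these fits is not given, and with all arrays it was 14.7%, so these counts are not read as a result about the members.

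Fkbp5 encodes the co-chaperone FKBP51, which lowers the affinity of the glucocorticoid receptor for its hormone and is itself induced by it. The probe that stands for the gene (A_51_P383689; mm9 chr17:28536878-28536937, minus strand) read -2.05, -2.04 and -2.18 in water, -2.08, -1.97 and -2.01 in low, -2.21, -1.94 and -2.0 in early high and -2.06, -2.19 and -1.92 in late high drinkers. Its conditions overlapped, with means between -2.09 in water and -2.02 in low drinkers, and alcohol lay 0.05 above water (SE 0.07, exact permutation p = 0.468). The other 2 probes gave 0.28 (SE 0.14, exact permutation p = 0.0909, 8 of 9 arrays above the water mean) and 0.13 (SE 0.10, exact permutation p = 0.245, 7 of 9 above). The sign was positive on all 3 probes, and none had an unadjusted p under 0.05 on this scale with all 12 arrays. The probe at 0.28 passed with normexp background (0.24), with the replicate block (0.28) and without early high 1 (0.31), and the probe at 0.13 passed in low drinkers against water with normexp (0.26), with the replicate block (0.24), without low 1 (0.31) and without early high 1 (0.24).

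Sgk1 encodes a kinase, induced by glucocorticoids and mineralocorticoids, that holds sodium channels at the cell surface. It was read by 1 usable probe (A_51_P118237; mm9 chr10:21719390-21719449, plus strand), since the other had no usable value on any array. It read 2.04, 2.36 and 2.14 in water, 2.10, 2.84 and 2.23 in low, 1.58, 2.43 and 3.22 in early high and 1.85, 2.37 and 3.43 in late high drinkers. Both high groups reached below and above the water arrays. The means rose from water (2.18) through low (2.39) and early high (2.41) to late high (2.55), no neighbours differing beyond their spread. The SD was 0.17 in water, 0.40 in low, 0.82 in early high and 0.80 in late high drinkers, each from 3 pools, and no test of these spreads was made. The pools of both high groups held fewer mice than those of water and low drinkers, and the part of pool size in these spreads cannot be told apart from that of condition. The whole range was 1.84, or 3.58-fold, wider than in 92.6% of probes. The alcohol difference was 0.27 (SE 0.34, exact permutation p = 0.482). With single arrays left out it ran from 0.15 without late high 3 to 0.38 without early high 1.

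**Figure D4:**
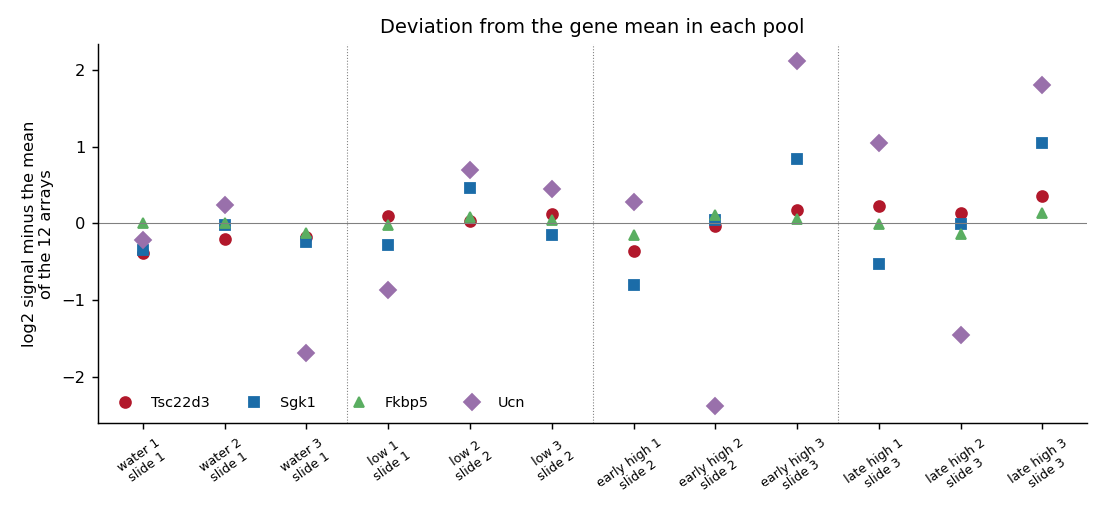
Log2 signal of Tsc22d3, Sgk1, Fkbp5 and Ucn (1 probe each) minus the gene's mean over the 12 arrays (y axis) in each pool (x axis), with dotted lines between conditions. Early high 3 and late high 3 carried the highest Ucn and Sgk1 values, and early high 1 the lowest Sgk1 value.

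Whether the measured genes moved together between pools was examined over all 36 pairs of the 9 genes, by permutation with 100000 draws and Benjamini-Hochberg adjustment over the pairs. No pair passed. The closest were Ucn with Crhr1 (Pearson r = 0.683, permutation p = 0.0131, adjusted 0.260; Spearman rho = 0.706, permutation p = 0.0130) and Fkbp5 with Sgk1 (r = 0.681, permutation p = 0.0144, adjusted 0.260; rho = 0.755, permutation p = 0.0064). Between values centred within each slide the Fkbp5 and Sgk1 correlation was 0.722, over the alcohol arrays alone 0.704, and without the 2 arrays farthest from the median 0.668. For Sgk1 with Tsc22d3 r was 0.598 (permutation p = 0.0395, adjusted 0.398; rho = 0.476, permutation p = 0.120), and it was 0.319 without early high 3 and late high 3, so it rests on those pools. For Crhr2 with Tsc22d3 r was -0.586 (permutation p = 0.0451, adjusted 0.398) and rho -0.594 (permutation p = 0.0457). That r was -0.924 over the alcohol arrays, -0.361 within slides and -0.197 without early high 1 and late high 3. Points on the same slide share their scan.
As a description over the 12 arrays, the gene most like Sgk1 was Pdk4 (r = 0.931, 0.925 within slides), a mitochondrial kinase gene that glucocorticoids also induce, followed by Jaml, Fas, Rsrp1 and Phyhd1. The genes most like Tsc22d3 were Selenbp1 (r = 0.929, 0.843 within slides), Aurka, Chic2, Farp1 and Bhlhe22, each over 0.90. Sgk1 was added to this search after its values were seen.

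Of 60 other genes of the pathway, 57 were tested. In alcohol against water 3 were higher and 0 lower at an unadjusted p under 0.05, near the 5.53% of all probes, and 0 passed adjustment in limma. All 3 belonged to the 33 glucocorticoid-responsive genes tested, whose median difference was 0.08 against 0.03 over all probes, with 27 of 33 above 0, as were 59.6% of all probes. The 3 were Plin4, which coats lipid droplets (1.23, SE 0.51, 8 of 9 arrays above the water mean), Map3k6, a stress-activated kinase (0.52, SE 0.16, 9 of 9 above), and Pnpla2, the lipase that begins the breakdown of stored fat (0.26, SE 0.11, 9 of 9 above). The adjusted p in limma was 0.819 for each.
Map3k6 read -2.26, -1.91 and -2.13 in water, -1.85, -1.32 and -1.59 in low, -2.06, -1.67 and -1.59 in early high and -1.57, -1.48 and -1.11 in late high drinkers. Only early high 1 lay within the range of water, as it did for Tsc22d3. Pnpla2 read 0.83, 0.81 and 0.63 in water and 1.21, 1.25 and 1.29 in late high drinkers, a difference of 0.49 (SE 0.07, adjusted p = 0.0790 in limma) without overlap. Plin4 lay between -1.58 and -1.05 in water, and late high 3 at 1.60 was its highest array. On slide 1, where low 1 alone stands for alcohol, its difference from the water mean was 0.56 for Plin4, 0.25 for Map3k6 and 0.10 for Pnpla2. The Plin4 call was lost in 2 of the 12 fits that leave out an array (1.11 without water 1 and 1.19 without water 3) and that of Pnpla2 in 4 (0.20 without water 3), whereas Map3k6 passed in all 12.

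In late high drinkers 6 of 57 were higher than water and 0 lower, against 15.7% of all probes in either direction. Besides Plin4 (1.91), Map3k6 (0.71) and Pnpla2, these were Arl4d, a small GTPase (0.50), Fkbp4, the co-chaperone FKBP52 (0.29), and Crebbp, a histone acetyltransferase that works with nuclear receptors (0.21). Of all probes, 6.87% were higher and 8.88% lower here, and 14.2% and 2.74% without scaling between arrays, where 13 of the 57 were higher and 0 lower, and with the slide as a fixed term 2 were higher and 3 lower (1.71% and 6.14% of all probes), with a median over the 57 genes of -0.04 in place of 0.06. Plin4, Map3k6, Pnpla2 and Crebbp passed in all 12 fits that leave out an array. Arl4d passed in 5 of them (0.33 without water 2 to 0.64) and Fkbp4 in 4 (0.15 without late high 1 to 0.38). In low drinkers 1 of 57 was higher, against 9.13% of all probes (Map3k6, 0.51, passing in 10 of 12 such fits), and in early high drinkers Pnpla2 was higher (0.17) and Hsd11b1, the enzyme that regenerates active glucocorticoid, lower (-0.20), 2 of 57 against 4.77% of all probes. Of the 12 fits, Pnpla2 passed there in 5 (0.11 without water 3 to 0.23) and Hsd11b1 in 7 (-0.15 without early high 1 to -0.27). Without early high 1, 7 of 57 were higher in alcohol against water, where 3.63% of all probes were higher in the same fit, and 7 in early high against water, where 2.21% were. That array was chosen after its values were seen. In high against low drinkers Pnpla2, Crebbp and Gadd45b were higher and Hif3a and Txnip lower, 5 of 57 against 14.7% of all probes. In late against early high Pnpla2 and Crebbp were higher and Hif3a lower, 3 of 57 against 12.4%. Without scaling between arrays the latter count was 10 higher and 1 lower (13.6% and 2.71% of all probes), with a median of 0.20 in place of 0.05, and the former 6 higher and 1 lower (10.6% and 4.51%). Pnpla2 passed in all 12 fits of both comparisons, Crebbp in 11 and 8, Hif3a in 11 (-0.38 without low 2) and 7, Txnip in 9 and Gadd45b in 6.
The other urocortins and co-secretagogues (Ucn2, Ucn3, Avp, Oxt, Adcyap1) gave 0 of 5 in each comparison. Avp, which acts beside the releasing hormone on corticotrophs, differed by 0.01 between alcohol and water (SE 0.10) and Oxt by 0.16 (SE 0.14). Of 8 receptor chaperones, 4 steroid-converting enzymes and 7 coregulators, 0 passed in alcohol against water.

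**Figure D5:**
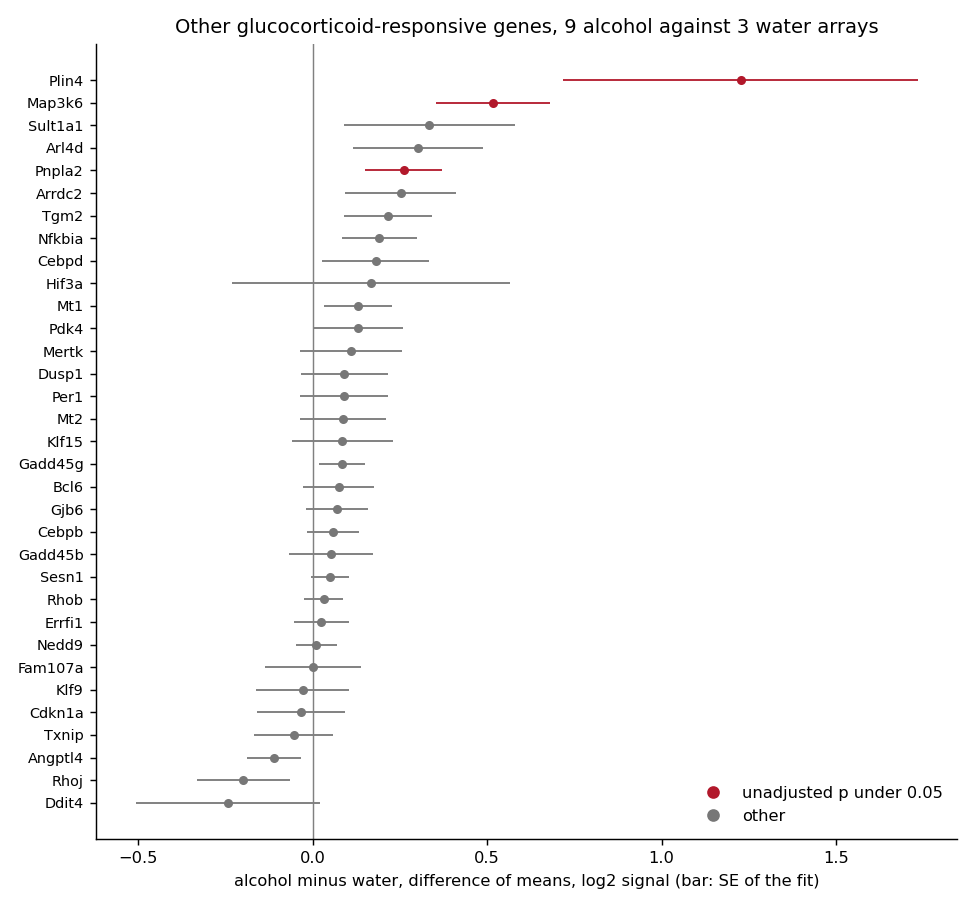
Difference of means in log2 signal between 9 alcohol and 3 water arrays (x axis, bars are standard errors of the limma fit) for 33 other glucocorticoid-responsive genes (y axis). Plin4, Map3k6 and Pnpla2, in red, had an unadjusted p under 0.05, and 27 of the 33 lay above 0, against 59.6% of all probes.

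How much of the spread of a gene lay between slides and how much between conditions cannot be told apart where the 2 coincide. For the 3 Tsc22d3 probes, 54.3%, 45.1% and 40.8% of the sum of squares lay between slides and 67.2%, 62.6% and 47.9% between conditions. On slide 2, early high 1 and 2 differed from low 2 and 3 by -0.27 on the brightest probe, and there were no water arrays to compare them with. For Sgk1 and Ucn the conditions held 6.61% and 7.65% of the sum of squares, so most of the variation of these genes lay between pools of the same condition.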

How the data were processed

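RNA from hypothalamus pools was Cy3-labelled and hybridised by the authors to 12 single-colour whole mouse genome arrays, and scanner files and a value table were deposited. The deposited intensity values (gProcessedSignal) were background-subtracted and detrended within each array, per the file headers by Feature Extraction 10.5.1.1, which place probes on mm9, and arrays were not scaled to each other. The deposited table held the same linear intensity (median ratio 1.0 to the scanner values).

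Here a spot was treated as missing if the scanner software marked it as a non-uniformity outlier or if its signal was below 2.0 times its error, log2 signals were reduced by the 75th percentile of each array (43379 non-control spots, 41174 probes), and spots of a probe were averaged. limma 3.58.1 in R 4.3.3 tested alcohol against water over 12 arrays and the 4 conditions in a second fit with a shared spread, with Benjamini-Hochberg adjustment over all probes (threshold 0.05). A probe needed values on at least 2 water and 5 alcohol arrays. The scripts were tested on simulated data. Exact permutation tests were 2-sided. Members, gene lists and the rule for named genes (all members, pathway genes with an unadjusted p under 0.05, at most 10, and the 5 genes most like Tsc22d3, with Avp and Oxt, and the likeness of Sgk1 and Ucn, added after their values were seen) were chosen with earlier results of these data known. The probe of highest mean stood for a gene, and Hsd11b2, Zbtb16 and Lcn2 had no probe with values on enough arrays. Alternatives were quantile or no scaling, normexp background with offset 50, the deposited table, other filters, slide or replicate blocks, the methods' t-test and leaving out each array. Leaving arrays out for the pathway lists was chosen after seeing the data. The number of arrays limits the precision.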

Additional observations from a re-analysis of the deposited data

Results flagged for a closer look

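Among the 9 alcohol arrays, the second Tsc22d3 probe (A_51_P235816) read lowest in early high 1 at 1.45, with the next array at 1.83, a gap of 0.535 of the whole range. Of 18 member probes examined this way 1 stood apart so far, where chance gives about 0.9. For Crhr2, every low array lay above the mean of water and every late high array below it, so that the 2 differences from water, 0.04 and -0.10, were -0.13 apart, and this difference was not tested. It was 1 of 52 pairs of conditions examined.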

How the results depend on the processing

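Counts of member probes at an unadjusted p under 0.05 moved as follows. Alcohol against water (3) fell to 0 without scaling and with the slide as a fixed block, and ran from 0 to 4 without single arrays. The replicate block gave 4 there, adding Fkbp5. Low against water (3) gave 0 without scaling, 1 with the slide as a fixed block and 0 to 4 without single arrays. Early high against water (0) gave 1 after quantile normalization and 0 to 4. Late high against water (4) gave 0 with the slide as a fixed block and 2 to 5. High against low (0) gave 1 without scaling, 1 with normexp, 1 with the replicate block (Nr3c1) and 0 to 2. Late against early high (4) gave 2 without scaling, 2 with the slide as a random block, 0 as a fixed block and 2 to 5. Shares of all probes under 0.05 moved too, in alcohol against water from 5.53% to 5.05% without scaling and 2.10% with the slide as a fixed block, in low against water from 9.13% to 7.99% and 3.07%, in early high against water from 4.77% to 3.45% and 7.04%, in late high against water from 15.7% to 17.0% and 7.85%, in high against low from 14.7% to 15.1% and 13.6%, and in late against early high from 12.4% to 16.4% and 4.75%. Of the 36 pairs of members, 3 passed adjustment without scaling, and 0 to 1 without single arrays. No member probe passed adjustment in any of these fits. With the slide as a fixed block the alcohol difference is that of low 1 alone from water, since no other alcohol array shares a slide with water, so it does not test the 9 arrays. It had the opposite sign to that over all arrays at -0.31 for Ucn, 0.00576 for Crhbp, -0.0520 for Crhr1, 0.0153 for Crhr2, 0.0247 for Nr3c1 and -0.0789 for Sgk1. Crhr1 ran from -0.0425 to 0.0758 without single arrays and Crhr2 from -0.0559 to 0.0412. A second Nr3c1 probe gave 0.0619, and Nr3c2 gave 0.00117 with normexp. The alcohol difference of Fkbp5 and Tsc22d3 stayed above 0 in all settings run, and that of Tsc22d3 ran from 0.28 to 0.40 on the brightest probe, with the lowest values of the other probes, 0.23 and 0.19, without water 1. The cause of these moves was not tested. Replicate numbers did not pair the arrays (18 same-number pairs, r from -0.0893 to 0.183, 9 negative, and 4 of 12 arrays closest to their own number). The median of all probes in late high against water was 0.129 without scaling and 0.00442 with it, and in late against early high 0.124 and -0.0287. Low signal over background limits the Nr3c2 probes and left the other Sgk1 probe unmeasured.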
